A study of Mus musculus with 16 samples.

Results

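Genes of 10 neuronal RNA-binding proteins that control splicing were followed in primary mouse cortical neurons expressing a fragment of huntingtin, the protein whose glutamine expansion causes Huntington disease. They were Elavl2, Elavl3, Elavl4, Nova1, Nova2, Rbfox1, Rbfox2, Rbfox3, Ptbp2 and Celf4. The set was chosen by symbol, with the counts of these same libraries across the 4 groups in view, so their values and calls below are a description and not an independent test. All 10 were found among the 41388 genes listed for each library. Cortical neurons were prepared from embryos of the Swiss Webster strain at embryonic day 16. On day 5 in vitro they were transduced with 2 lentiviruses, one carrying Htt exon 1 and the other a small hairpin RNA for silencing (shRNA), and they were harvested on day 10. The groups were Htt-72Q exon 1 (72 glutamines, mutant) with Twist1 shRNA 1, Htt-72Q exon 1 with Twist1 shRNA 2, Htt-72Q exon 1 with luciferase shRNA (72Q control) and Htt-25Q exon 1 (25 glutamines) with luciferase shRNA (25Q control). The promoter of each virus is not stated. Every group therefore carried an overexpressed huntingtin fragment and an shRNA virus, and no untransduced neurons were analysed here. Each group had 4 libraries, 1 from each of the experiments labelled exp107, exp108, exp109a and exp109b. The labels do not say whether exp109a and exp109b were separate experiments. The study asks what part Twist1, a basic helix-loop-helix transcription factor of mesoderm and neural crest, has in the transcript changes caused by mutant huntingtin.

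As background, these proteins bind short motifs in nascent transcripts and decide whether nearby exons are kept or skipped, which gives neurons transcript isoforms that other cells do not make. The neuronal Elavl proteins (Hu proteins) bind U-rich sequence and also stabilise messenger RNAs, Nova proteins are KH-domain proteins with many synaptic targets, and Rbfox proteins bind UGCAUG. Ptbp2 replaces its relative Ptbp1 when progenitors become neurons, and Celf4 is a neuronal member of the CUG-binding Celf family. The counts are per gene: they give transcript levels of the regulators and neither their isoforms nor the splicing of their targets.

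All 16 libraries held between 15814525 and 19533034 counts. Mitochondrial transcripts took 2.39 to 3.26% of counts with Twist1 shRNA 1, 2.10 to 2.78% with shRNA 2, 3.16 to 3.59% in 72Q controls and 2.41 to 2.78% in 25Q controls, and genes with a count numbered 20488 to 21306, 20721 to 21433, 20544 to 21306 and 20188 to 20426. On both measures 72Q controls lay wholly above 25Q controls, and the part of this in the values below was not tested. Twist1 itself was low: 1.57 ± 0.45 CPM (counts scaled to the library total, with TMM factors) with Twist1 shRNA 1, 1.64 ± 0.40 with Twist1 shRNA 2, 4.15 ± 0.76 in 72Q controls and 0.271 ± 0.225 in 25Q controls (SD, n = 4 each). By edgeR's quasi-likelihood test its log2 fold change against 72Q controls was -1.35 ± 0.21 (SE, adjusted p = 1.52e-06) for shRNA 1. For shRNA 2 it was -1.29 ± 0.20 (edgeR adjusted p = 2.97e-06), and in 72Q against 25Q controls 3.47 ± 0.30 (edgeR adjusted p = 4.77e-12). Fold changes include a prior count of 2, and SEs and 95% intervals come from the fit without it. For Twist1 in 72Q against 25Q controls that interval was 3.28 to 4.51, and DESeq2 gave 3.93. The 25Q libraries of exp107, exp108, exp109a and exp109b held only 5, 9, 4 and 0 Twist1 counts. Twist1 was not called different between the shRNAs, with a log2 difference of -0.07 (shRNA 1 over shRNA 2, 95% interval -0.56 to 0.42). All 15 pan-neuronal markers were detected in every group, led by Mapt, the gene of the microtubule protein tau. Their summed level was 14220 to 15310 CPM with Twist1 shRNA 1, 12080 to 13730 with shRNA 2, 13150 to 15130 in 72Q controls and 17940 to 19250 in 25Q controls. Glial and progenitor RNA was also present: the sum of 8 astrocyte markers, led by Slc1a2, was 2024 to 2366, 1588 to 1829, 2043 to 2218 and 1818 to 1995 CPM in the same order of groups. For 8 oligodendrocyte-lineage markers, led by Pdgfra, the sum was 872.0 to 972.7, 749.8 to 868.4, 1055 to 1193 and 1024 to 1145 CPM. The 8 progenitor markers, led by Vim, summed to 357.4 to 434.5, 299.4 to 354.3, 373.5 to 469.1 and 300.6 to 401.3 CPM. Microglial markers (led by Aif1) summed to 7.00 to 13.2 CPM over the libraries and vascular and meningeal markers (led by Pdgfrb) to 10.9 to 29.8 CPM, with C1qb at 0 in shRNA 2 libraries and Tmem119 and Cldn5 at 0 in 25Q controls. In such bulk RNA, fewer cells of a type and less RNA per cell cannot be told apart. Whether the shifts in marker levels contributed to the values of the 10 genes was not tested.

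Levels between genes were compared per length, as the deposited RPKM (counts scaled to library total and gene length). With Twist1 shRNA 2, Celf4 (96.7 ± 5.2 RPKM) and Rbfox2 (81.4 ± 7.3) stood highest, followed by Rbfox1 (42.5 ± 3.7) and Elavl3 (42.4 ± 6.7), whose ranges overlapped. In 25Q controls the order at the top was another, and Celf4 (111.6 ± 10.3 RPKM), Elavl3 (103.1 ± 12.5) and Rbfox2 (79.5 ± 5.2) stood highest. Rbfox1 (42.3 ± 2.5), Ptbp2 (41.1 ± 1.4) and Rbfox3 (32.4 ± 2.0) followed, and then Elavl4 (16.6 ± 0.7), Nova2 (13.9 ± 2.5), Elavl2 (8.11 ± 0.31) and Nova1 (3.59 ± 0.39), all as SD with n = 4. Celf4 and Elavl3 overlapped in range, as did Rbfox1 and Ptbp2, and Elavl4 and Nova2. The smallest count behind any of these values was 399, for Nova1 in a 25Q control library.

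The genes lie on different chromosomes apart from a pair on chromosome 4. On build GRCm38 the files list Elavl2 (ENSMUSG00000008489) at chr4:91250763-91400785, Elavl4 (ENSMUSG00000028546) at chr4:110203722-110351909 and Elavl3 (ENSMUSG00000003410) at chr9:22015005-22052023, all on the minus strand. Nova1 (ENSMUSG00000021047) is at chr12:46694517-46818775, minus strand, and Nova2 (ENSMUSG00000030411) at chr7:18925888-18965319, plus strand. Rbfox1 (ENSMUSG00000008658) is at chr16:6809222-7412479, plus strand, Rbfox2 (ENSMUSG00000033565) at chr15:77078990-77307053, minus strand, and Rbfox3 (ENSMUSG00000025576) at chr11:118489762-118911597, minus strand. Ptbp2 (ENSMUSG00000028134) is at chr3:119718742-119783388 and Celf4 (ENSMUSG00000024268) at chr18:25477632-25753983, both minus strand. Values are for all exons of a gene together. For Nova2, 2652 exon bases (31.7% of its listed length) are shared with Gm26821 on the opposite strand, which is listed at 0 in all libraries, and the sources used here do not say whether reads there were discarded. The listed span of Rbfox1 starts 923867 bases downstream of the start in GENCODE M21 (chr16:5885355), so exons upstream of it were not counted.

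The first comparison is between the polyglutamine lengths. Rbfox1, Rbfox3, Ptbp2, Celf4, Elavl2 and Nova2 were called lower in 72Q than in 25Q controls, Nova1 was called higher, and Rbfox2, Elavl3 and Elavl4 were not called. A gene is called where its Benjamini-Hochberg adjusted p, over the 15103 genes tested with edgeR, was under 0.05; all 10 were tested. In this comparison 27.8% of all genes tested were called lower and 29.3% higher, and since these counts chose the 10 genes, nothing is read from their 6 and 1. For the same reason, medians of the 10 genes, here and below, are only described. The median log2 fold change of the 10 genes was -0.27, against 0.03 over all genes tested. Scaling by library totals alone in place of TMM moved that median of all genes to 0.16, and the share of calls that were higher to 69.6% in place of 51.4%.

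In the Rbfox family, 2 of 3 genes were called lower. Rbfox3, whose protein is the neuronal nuclear marker NeuN, had 114.3, 86.8, 133.9 and 106.4 CPM in 72Q controls of exp107, exp108, exp109a and exp109b, against 190.7, 202.3, 215.6 and 208.6 CPM in 25Q controls of the same experiments. Every 72Q library lay below every 25Q library, and the log2 fold change was -0.91 ± 0.08 (SE). Rbfox1 had 117.9, 99.9, 120.6 and 112.8 CPM in 72Q controls, against 185.7, 175.8, 205.1 and 195.1 CPM in 25Q controls. Again the groups did not overlap, with a log2 fold change of -0.76 ± 0.05. Rbfox2, the most broadly expressed of the family, had 619.4, 628.8, 674.5 and 646.2 CPM in 72Q controls, against 595.7, 604.1, 673.1 and 664.3 CPM in 25Q controls. These overlapped, and the log2 fold change was 0.02 (95% interval -0.07 to 0.11), or 0.15 and called higher with library totals alone.

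Ptbp2, which holds back exons of the mature neuronal programme, had 107.6, 108.3, 107.4 and 95.4 CPM in 72Q controls, against 154.8, 152.1, 145.7 and 146.6 CPM in 25Q controls. No 72Q library reached the 25Q range, and the log2 fold change was -0.52 ± 0.05. Celf4 had 405.1, 309.3, 405.6 and 352.1 CPM in 72Q controls, against 515.4, 404.6, 510.2 and 508.0 CPM in 25Q controls. The only overlap came from the exp108 library of 25Q. Within each of the 4 experiments Celf4 was lower in 72Q, and the log2 fold change was -0.40 ± 0.05.

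Nova1 was the member with higher transcript in 72Q controls. It had 37.9, 41.1, 41.6 and 46.2 CPM there, against 25.3, 24.4, 31.1 and 28.4 CPM in 25Q controls, with no overlap and a log2 fold change of 0.61 ± 0.07. Its paralogue Nova2 had 106.5, 89.7, 133.4 and 111.8 CPM in 72Q controls, against 123.8, 94.4, 139.3 and 148.4 CPM in 25Q controls. The Nova2 ranges overlapped, and the log2 fold change of -0.19 ± 0.07 was no longer called in several other fits: -0.15 without the exp109b library of 72Q, -0.14 without that of 25Q, -0.13 with upper-quartile factors and -0.06 with library totals alone.

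Of the Hu protein genes, Elavl2 was lower in 72Q, with 63.1, 52.9, 66.7 and 49.3 CPM in 72Q controls, against 76.0, 72.6, 69.4 and 74.5 CPM in 25Q controls. The groups did not overlap and the log2 fold change was -0.34 ± 0.06. Elavl3, the highest of the Hu genes followed here, averaged 541.0 ± 52.8 CPM in 72Q controls and 563.0 ± 71.3 CPM in 25Q controls. Elavl4 ranged over 86.2 to 103.0 CPM in 72Q controls and 92.5 to 100.5 CPM in 25Q controls. Their log2 fold changes were -0.05 (95% interval -0.16 to 0.05) and -0.02 (-0.13 to 0.10). With library totals alone they were 0.08 and 0.12, above those intervals and still not called, so the intervals do not cover the choice of scaling. The same scaling gave -0.62 for Rbfox1, -0.77 for Rbfox3, -0.38 for Ptbp2, -0.26 for Celf4 and -0.21 for Elavl2, all still called lower.

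**Figure D1:**
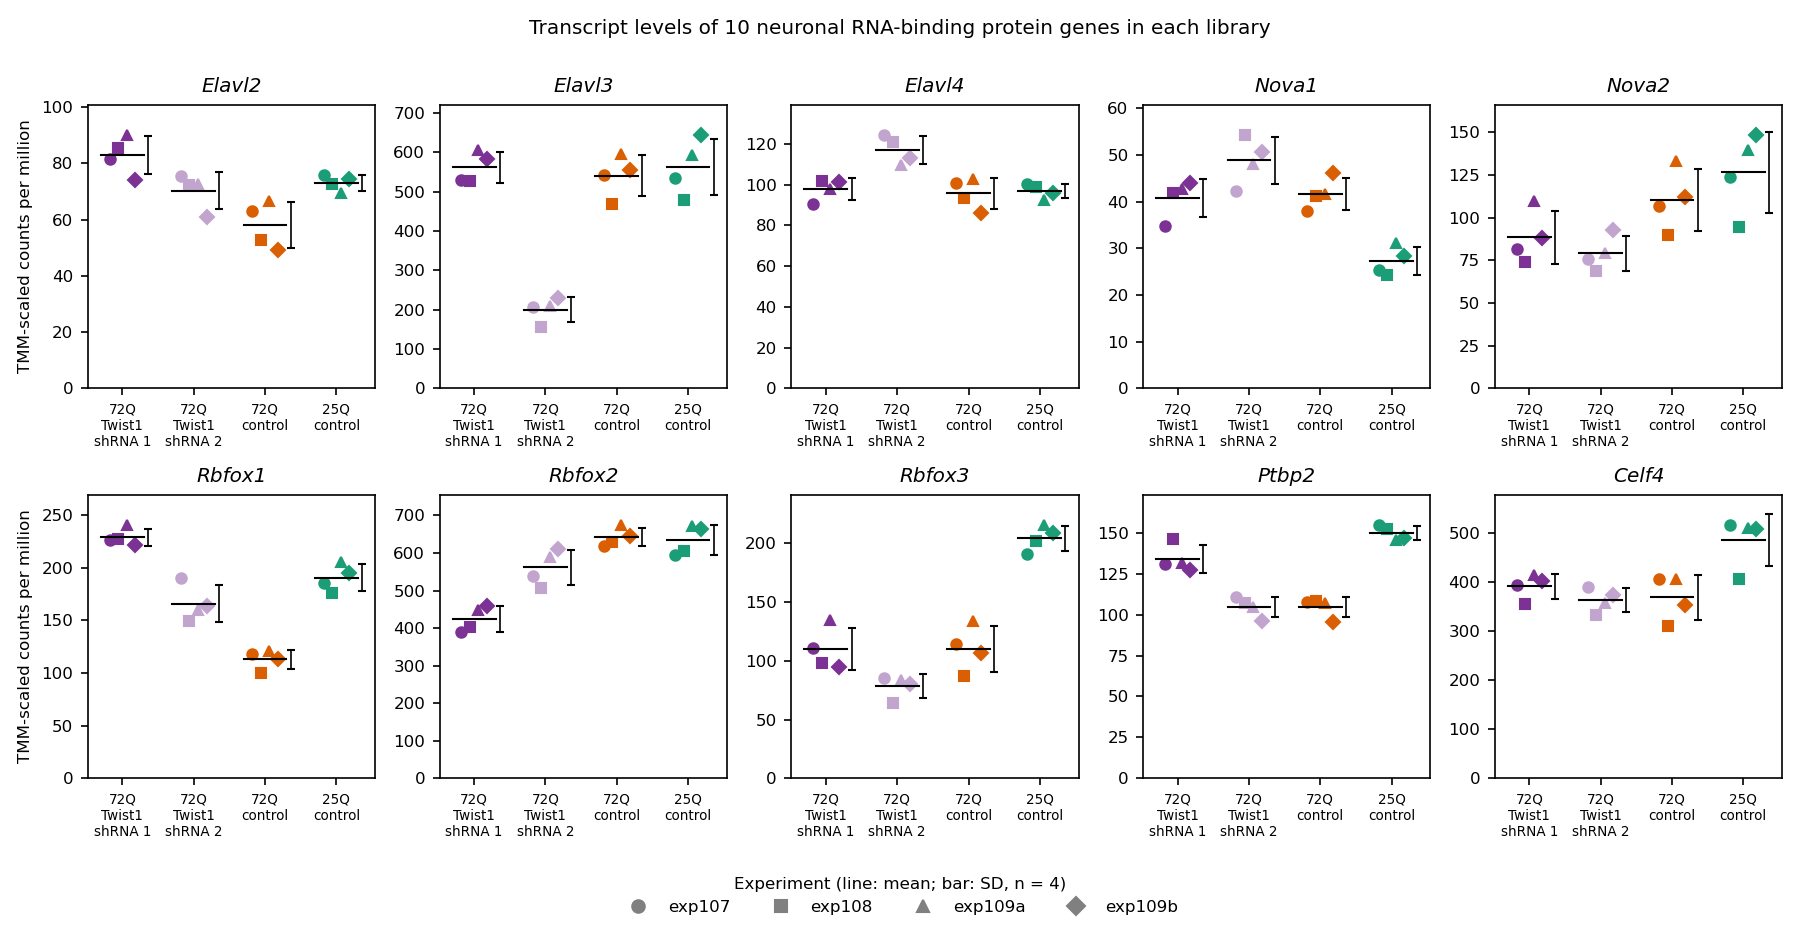
TMM-scaled CPM of each of the 10 genes (vertical axis, from 0) in every library of the 4 groups, with the experiment given by the marker, the mean as a line and the SD (n = 4) as a bar. Elavl3 stands at 154.9 to 230.1 CPM in the 4 libraries with Twist1 shRNA 2 and at 469.7 CPM or above in all others, while Rbfox1 is highest with Twist1 shRNA 1 (221.3 to 240.4 CPM).

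With the Twist1 shRNAs in 72Q neurons, the 10 genes held values in both directions. With shRNA 1, Rbfox1, Elavl2 and Ptbp2 were called higher than in 72Q controls, Rbfox2 and Nova2 were called lower, and Elavl3, Elavl4, Nova1, Rbfox3 and Celf4 were not called. Over all genes tested 22.7% were called higher and 23.6% lower, and the median log2 fold change was 0.05 for the 10 genes and -0.01 for all. With shRNA 2, Rbfox1, Elavl4, Elavl2 and Nova1 were called higher and Elavl3, Rbfox3, Nova2 and Rbfox2 lower, while Ptbp2 and Celf4 were not called. Here 20.2% of all genes were called higher and 21.5% lower, with medians of -0.01 for the 10 genes and 0.00 for all. With library totals alone 65.3% of the shRNA 2 calls were higher, in place of 48.5%. Both comparisons use the same 72Q controls, which also stand in the comparison with 25Q, so opposite signs between them are not independent of each other.

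Rbfox1 was the member with the highest fitted rise under either shRNA. It had 225.9, 227.3, 240.4 and 221.3 CPM with Twist1 shRNA 1 and 190.2, 148.9, 160.0 and 163.2 CPM with Twist1 shRNA 2 in exp107, exp108, exp109a and exp109b, against the 72Q control values given above (99.9 to 120.6 CPM). All 8 libraries with a Twist1 shRNA lay above all 72Q controls. The log2 fold changes were 1.02 ± 0.05 with shRNA 1 and 0.55 ± 0.05 with shRNA 2.

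Rbfox2 was lower with each shRNA. It had 390.1, 401.6, 447.5 and 459.3 CPM with shRNA 1 and 539.3, 507.2, 590.2 and 610.7 CPM with shRNA 2, against 619.4 to 674.5 CPM in 72Q controls. Neither range reached that of the controls, although the shRNA 2 range came close. Log2 fold changes were -0.60 ± 0.04 and -0.20 ± 0.04, and the second, at -0.19, was not called in the fit with no block for experiment. Rbfox3 was called lower with shRNA 2, as Rbfox2 was, and was not called with shRNA 1. It averaged 109.7 ± 17.8 CPM with shRNA 1, 78.6 ± 10.0 CPM with shRNA 2 and 110.3 ± 19.5 CPM in 72Q controls. Its log2 fold change was 0.00 (95% interval -0.18 to 0.17) with shRNA 1 and -0.48 ± 0.08 with shRNA 2, where all 4 libraries (63.9 to 85.8 CPM) lay under the lowest control (86.8 CPM).

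Elavl3 had the lowest fold change of the 10 genes with Twist1 shRNA 2, and was not called with shRNA 1. It had 205.9, 154.9, 210.4 and 230.1 CPM with Twist1 shRNA 2, against 541.9, 469.7, 596.1 and 556.2 CPM in 72Q controls. Libraries with shRNA 1 held 529.1, 527.6, 607.3 and 582.3 CPM, within or just above the control range. The log2 fold change with shRNA 2 was -1.44 ± 0.05, which ranked 4 from the lowest of the 15103 genes tested in that comparison. In all, 65 genes there were called lower with a log2 fold change of -1 or lower. With shRNA 1 it was 0.06 (95% interval -0.05 to 0.17). Leaving out any 1 of the 16 libraries kept the shRNA 2 value between -1.48 and -1.38. Whether either shRNA acts on transcripts other than Twist1 was not tested.

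The other Hu genes moved the other way with shRNA 2. Elavl4 had 124.4, 121.2, 109.5 and 112.9 CPM with shRNA 2, against 100.7, 93.4, 103.0 and 86.2 CPM in 72Q controls, and the groups did not overlap (log2 fold change 0.29 ± 0.05). Elavl2 averaged 82.9 ± 6.7 CPM with shRNA 1, 70.4 ± 6.5 CPM with shRNA 2 and 58.0 ± 8.2 CPM in 72Q controls, with log2 fold changes of 0.52 ± 0.06 and 0.28 ± 0.06. Its shRNA 1 libraries lay above all controls, and its shRNA 2 libraries overlapped them.

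Ptbp2 was called higher with shRNA 1 and not with shRNA 2, and the difference between the shRNAs was itself called. It had 130.8, 146.5, 131.7 and 127.3 CPM with shRNA 1 and 111.0, 107.3, 104.6 and 96.1 CPM with shRNA 2, against 95.4 to 108.3 CPM in 72Q controls. The log2 fold change was 0.36 ± 0.05 with shRNA 1 and 0.00 (95% interval -0.09 to 0.09) with shRNA 2. Nova2 was lower with both, at 74.0 to 109.9 CPM with shRNA 1, 68.5 to 92.9 CPM with shRNA 2 and 89.7 to 133.4 CPM in 72Q controls. Its ranges overlapped the controls, and of its log2 fold changes of -0.32 ± 0.07 and -0.47 ± 0.07 the first was not called without the block (-0.32). Nova1 averaged 40.8 ± 4.1 CPM with shRNA 1, 48.8 ± 5.0 CPM with shRNA 2 and 41.7 ± 3.4 CPM in 72Q controls. Its log2 fold changes were -0.03 (95% interval -0.16 to 0.09) and 0.23 ± 0.06, and the second was not called without the block (0.23). Celf4 averaged 390.7 ± 25.9, 362.9 ± 24.6 and 368.0 ± 46.5 CPM in those groups. Neither of its log2 fold changes was called, 0.09 (-0.01 to 0.19) with shRNA 1 and -0.01 (-0.11 to 0.08) with shRNA 2; the first was called (0.13) without the exp107 library of shRNA 1 or without the exp109a library of the 72Q controls, and (0.11) with upper-quartile factors.

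**Figure D2:**
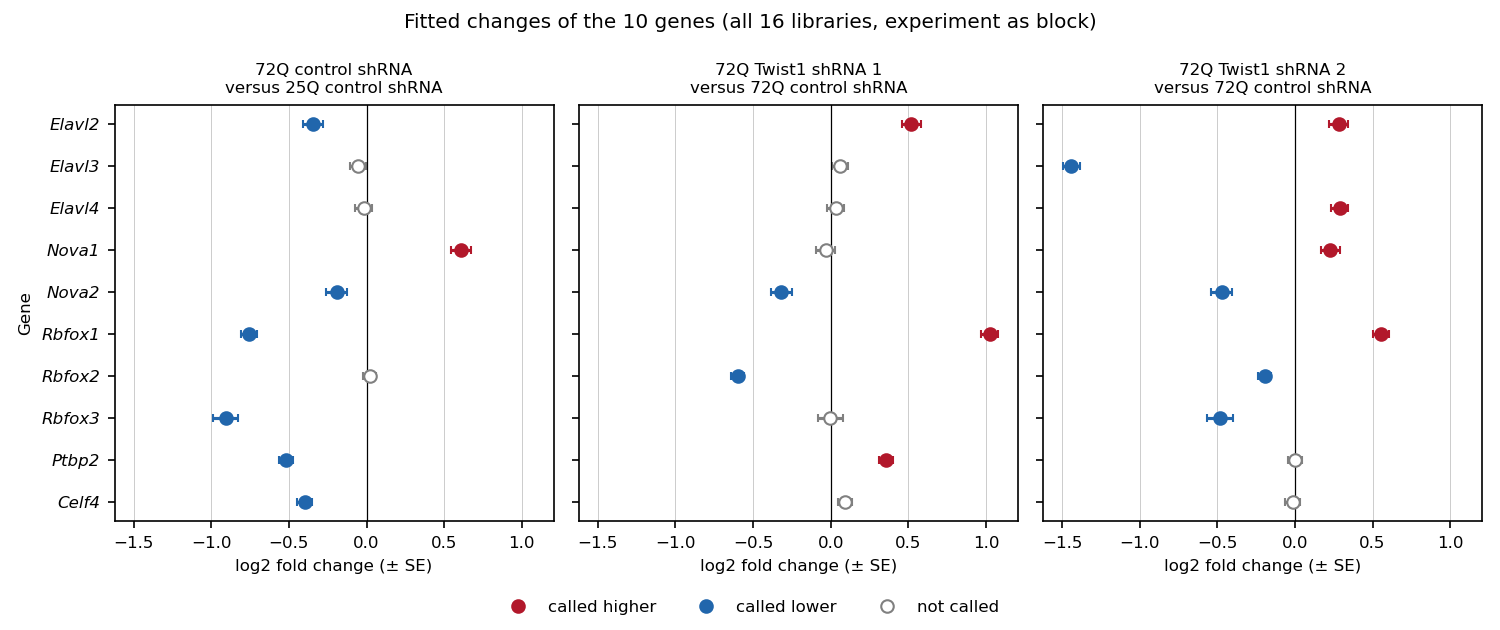
Log2 fold change (horizontal axis, ± SE) of the 10 genes in 72Q against 25Q controls, Twist1 shRNA 1 against 72Q controls and Twist1 shRNA 2 against 72Q controls, from 1 edgeR fit to all 16 libraries; filled points were called. Rbfox1 stands at -0.76, 1.02 and 0.55 from left to right, and Elavl3 at -0.05, 0.06 and -1.44.

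Set directly against each other, the shRNAs gave different levels for 8 of the 10 genes. Elavl3 (log2 difference 1.498 ± 0.054), Rbfox3 (0.48 ± 0.08), Rbfox1 (0.47 ± 0.05), Ptbp2 (0.36 ± 0.05) and Elavl2 (0.24 ± 0.06) were called higher with shRNA 1 than with shRNA 2. Rbfox2 (-0.40 ± 0.04), Nova1 (-0.26 ± 0.06) and Elavl4 (-0.26 ± 0.05) were called lower. Nova2 (0.15, 95% interval 0.01 to 0.30) and Celf4 (0.11, 0.01 to 0.20) were not called here, but each was in several fits that left out 1 library (0.15 to 0.21 for Nova2, 0.11 to 0.14 for Celf4). Over all genes tested 27.3% were called higher and 25.9% lower in this comparison, or with library totals alone 36.5% of calls were higher in place of 51.3%. Each of the 8 called genes had the same direction in all 4 experiments, which adds no separate support, since the calls came from these same libraries.

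The Twist1 shRNA neurons were also set against 25Q controls. With shRNA 1 the 10 genes counted 3 called higher (28.1% of all genes) and 5 lower (29.4%), and with shRNA 2 they counted 2 higher (31.4%) and 7 lower (31.8%). The median log2 fold changes were -0.08 and -0.31, against 0.01 over all genes in each. With library totals alone the calls were 66.5% and 72.3% higher, in place of 48.9% and 49.7%, and with upper-quartile factors 61.2% and 61.5%. Elavl3 was lowest with shRNA 2 (-1.49 ± 0.05) and not called with shRNA 1 (0.00, 95% interval -0.10 to 0.11). Rbfox3 was below its 25Q level, with log2 fold changes of -0.91 ± 0.08 with shRNA 1 and -1.39 ± 0.08 with shRNA 2. Nova1 stood above 25Q in both, at 0.58 ± 0.07 and 0.84 ± 0.06, and Celf4 below it, at -0.31 ± 0.05 and -0.41 ± 0.05. Rbfox1 was above its 25Q level with shRNA 1 (0.27 ± 0.05, no overlap of libraries). With shRNA 2 Rbfox1 was at -0.20 ± 0.05 and Rbfox2 at -0.18 ± 0.04, both called lower, but at 0.01 and 0.03 and not called with library totals alone. With shRNA 1 Rbfox2 was at -0.58 ± 0.04 against 25Q. Nova2 was at -0.51 ± 0.07 with shRNA 1 and -0.66 ± 0.07 with shRNA 2, and Ptbp2 at -0.16 ± 0.05 and -0.52 ± 0.05. Elavl4 was at 0.01 (95% interval -0.10 to 0.13, not called) with shRNA 1 and 0.27 ± 0.05 with shRNA 2. Elavl2 was at 0.18 ± 0.06 with shRNA 1 and -0.06 (-0.19 to 0.07, not called) with shRNA 2; the first was not called without the exp108 (0.15) or exp109a (0.16) library of shRNA 1 or the exp109a library of 25Q (0.11).

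Shares within a family, taken from RPKM inside each library, do not depend on how libraries are scaled to each other. In the Rbfox family, Rbfox1 made up 41.9 ± 1.5% of the summed RPKM with Twist1 shRNA 1, 30.8 ± 2.5% with shRNA 2, 20.4 ± 0.9% in 72Q controls and 27.4 ± 0.7% in 25Q controls (SD, n = 4). Rbfox2 made up 43.8 ± 2.4%, 58.9 ± 2.8%, 65.5 ± 2.3% and 51.6 ± 0.4% in the same order. Rbfox1 thus came level with Rbfox2 in shRNA 1 libraries, where their RPKM ratio was 0.854 to 1.03, against 0.282 to 0.337 in 72Q controls. Unlike the shares, summed RPKM depends on the scaling, and the deposited RPKM carry no TMM factors. The family's sum was 132.5 ± 6.2 with shRNA 1, 138.2 ± 9.4 with shRNA 2, 134.9 ± 6.3 in 72Q controls and 154.1 ± 9.3 in 25Q controls. TMM factors were 0.898 to 0.949 in 25Q controls and 1.04 to 1.08 with shRNA 2, so these sums compare groups only roughly.

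Elavl3 held 79.8 ± 1.2% of the Hu gene sum with shRNA 1, 56.6 ± 5.2% with shRNA 2, 81.3 ± 1.6% in 72Q controls and 80.5 ± 2.3% in 25Q controls. That sum holds Elavl2, Elavl3 and Elavl4 and leaves out Elavl1. Again without TMM factors, the Hu sum itself was 74.6 ± 5.4 RPKM with shRNA 2, against 133.8 ± 9.8 RPKM in 72Q controls. Elavl4 averaged 23.1 ± 1.1 RPKM with shRNA 2, against 16.6 to 18.9 RPKM in 72Q controls. Nova1 made up 35.8 ± 3.8% of the Nova sum with shRNA 1, 42.6 ± 4.2% with shRNA 2, 31.4 ± 3.6% in 72Q controls and 20.7 ± 2.2% in 25Q controls. The Nova ratio in 72Q controls (Nova1 over Nova2 0.373 to 0.548) lay wholly above that in 25Q controls (0.229 to 0.309). Ptbp2 made up 84.8 ± 0.9% of the sum with Ptbp1 with shRNA 1, 81.5 ± 1.6% with shRNA 2, 78.8 ± 1.1% in 72Q controls and 84.9 ± 0.9% in 25Q controls. Its share was 77.4% or more in every library. Ptbp3 was left out of this sum.

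**Figure D3:**
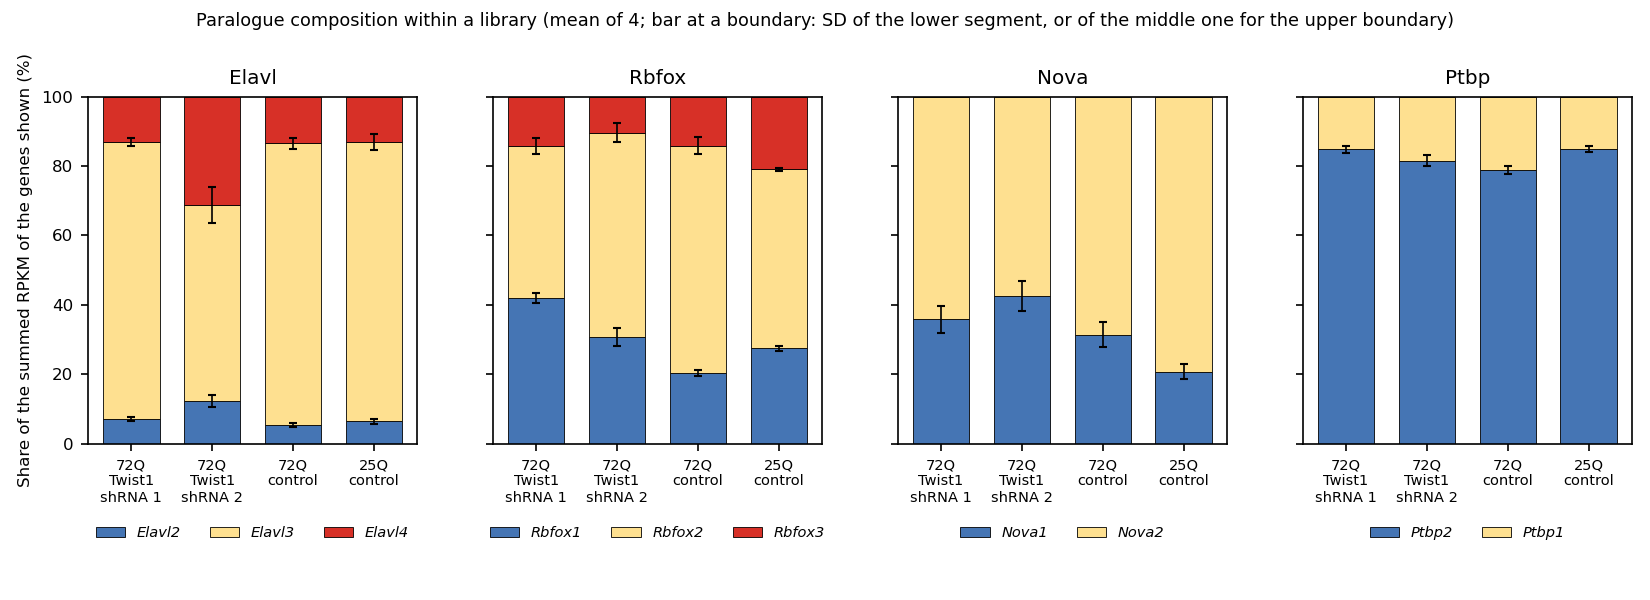
Mean share (percent, 4 libraries) of each gene in the summed RPKM of the family genes shown, in the 4 groups. Elavl1 and Ptbp3 are left out. Bars at a boundary give the SD of the segment under it. Elavl3 takes 56.6% with Twist1 shRNA 2 against 79.8 to 81.3% in the other groups, and Rbfox1 takes 41.9% with Twist1 shRNA 1 against 20.4% in 72Q controls.

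The regions before the start sites of Elavl3 and Rbfox1 are shown because these genes had the lowest and the highest fold change of the 10 with a Twist1 shRNA. They are the 250 bases upstream of the RefSeq start (GRCm38.p6), 5′ to 3′ on the gene's strand, with CANNTG in capitals, the E-box to which bHLH factors such as Twist1 bind. The Elavl3 region is chr9:22052024-22052273 (minus strand) and the Rbfox1 region chr16:7069585-7069834 (plus strand). RefSeq lists 2 starts for Rbfox1, and the one shown lies 260613 bases inside the listed span.
Elavl3: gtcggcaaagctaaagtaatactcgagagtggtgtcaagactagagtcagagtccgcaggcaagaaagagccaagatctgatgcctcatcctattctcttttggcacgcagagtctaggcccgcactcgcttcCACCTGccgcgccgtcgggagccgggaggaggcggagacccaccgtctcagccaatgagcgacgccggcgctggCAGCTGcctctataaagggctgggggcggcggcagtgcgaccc
Rbfox1: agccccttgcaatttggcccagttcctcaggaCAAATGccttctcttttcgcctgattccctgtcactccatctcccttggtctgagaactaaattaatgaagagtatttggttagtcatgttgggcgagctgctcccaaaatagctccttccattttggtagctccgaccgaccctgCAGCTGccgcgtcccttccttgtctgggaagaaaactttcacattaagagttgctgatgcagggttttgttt
CANNTG reads the same on both strands, so 1 search covers both. Each region held 2 matches, CACCTG and CAGCTG in Elavl3 and CAAATG and CAGCTG in Rbfox1. Of 32817 such regions, 66.22% held at least 1 match and 31.82% at least 2. Rbfox3 also held 2 and Nova1 1, while Elavl2, Elavl4, Nova2 and Ptbp2 held none in this window. The start used lies 150556 bases inside the listed span for Rbfox3 and 801 bases inside it for Elavl2. RefSeq lists 6 starts for Elavl2 and 4 for Elavl4, of which 1 each was searched. In all, 8 of the 10 genes were searched. A match is a string of letters and not a site of binding.

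Across the 16 libraries the 10 genes fell into different patterns. Pearson's r of log2(TMM CPM + 1), given as a description because libraries share groups and experiments, was highest between Elavl2 and Rbfox1 (0.86) and between Rbfox3 and Celf4 (0.85). It was lowest between Nova1 and Rbfox3 (-0.89), between Elavl3 and Elavl4 (-0.83) and between Nova1 and Ptbp2 (-0.80). For Elavl3 and Elavl4, the shRNA 2 libraries stood apart from all others, at 154.9 to 230.1 and 109.5 to 124.4 CPM. Without those libraries r was not computed. Paralogues did not run together: r was -0.63 for Rbfox1 and Rbfox2, 0.27 for Rbfox1 and Rbfox3, 0.35 for Rbfox2 and Rbfox3, -0.53 for the Nova pair and 0.03 for Elavl2 and Elavl3. Among genes with a mean of at least 5 CPM, the gene most like Rbfox1 was Stum (r = 0.97), and for Rbfox2 it was Rab23, a small GTPase (0.97). For Rbfox3 it was Nav2 (0.98), for Ptbp2 the formin gene Daam1 (0.98), for Celf4 the adhesion gene Cadm1 (0.97), for Nova1 Rbm25 (0.96) and for Nova2 Dscaml1 (0.96). For Elavl2 it was Fgf13 (0.96), and for Elavl4, with the weakest likeness, the GABA receptor subunit gene Gabra3 (0.86).

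Other splicing regulators were set beside the 10 genes as lists. Their counts stand against the shares of all genes given above: 29.3% rose and 27.8% fell in 72Q against 25Q controls, 22.7% and 23.6% with shRNA 1, and 20.2% and 21.5% with shRNA 2. Of 8 further paralogues (Celf, Ptbp and related genes), 0 rose and 3 fell in 72Q against 25Q controls, with a median log2 fold change of -0.05. The 3 were relatives of Celf4: Celf2 had 240.4 ± 38.8 CPM in 72Q controls and 519.1 ± 68.8 CPM in 25Q controls (log2 fold change -1.11 ± 0.06, edgeR adjusted p = 2.59e-13). Celf3 changed by -0.66 ± 0.05 (adjusted p = 1.87e-11) and Celf5 by -0.26 ± 0.05 (adjusted p = 0.000139). With Twist1 shRNA 1, 3 paralogues rose and 2 fell. Ptbp3, a relative of Ptbp2 best known from blood cells, had 57.1 ± 3.7 CPM with shRNA 1 and 27.5 ± 2.4 CPM in 72Q controls (1.05 ± 0.06, edgeR adjusted p = 4.41e-15). Celf1, the broadly expressed founder of the family, had 89.0 ± 8.4 CPM with shRNA 1 and 162.6 ± 16.2 CPM in 72Q controls (-0.87 ± 0.04, edgeR adjusted p = 3.45e-16). Ptbp1 fell by 0.22 on the log2 scale and Celf2 rose by 0.38. With shRNA 2, 2 rose (Celf6 0.26, Ptbp3 0.25) and 3 fell, among them Celf3 (-0.62 ± 0.05) and Celf5 (-0.38 ± 0.05).

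Of 25 tested among 28 other regulators of tissue-specific exons, 10 rose and 7 fell in 72Q against 25Q controls, the falls being near the 27.8% of all genes. Those that fell included Rbm24 (-1.36 ± 0.09), Khdrbs3 (-1.21 ± 0.05) and Khdrbs2 (-0.87 ± 0.09), the last a pair of STAR-family proteins related to Sam68. Khdrbs3 had 72.8 ± 9.1 CPM in 72Q controls and 167.5 ± 8.6 CPM in 25Q controls (edgeR adjusted p = 5.42e-18). Those that rose included Srrm3, an activator of neuronal microexons (0.67 ± 0.05, edgeR adjusted p = 1.02e-11), Msi2 (0.44 ± 0.05) and Mbnl1 (0.38 ± 0.06). With shRNA 1, 5 rose and 5 fell, or 5 and 7 with library totals alone, led by Tia1 (0.57 ± 0.06) and Rbm24 (0.55 ± 0.10) upward and Msi1 (-0.44 ± 0.07) and Raver1 (-0.41 ± 0.07) downward. With shRNA 2, 3 rose and 9 fell, or 6 and 6 with library totals alone. Mbnl1 (0.46 ± 0.05) and Tia1 (0.43 ± 0.06) led the rises, and Msi1, an RNA-binding protein of neural progenitors (-0.86 ± 0.07), and Raver1 (-0.39 ± 0.07) the falls.

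General splicing proteins formed the remaining lists. Of 12 tested SR and Tra2 genes, 4 rose and 3 fell in 72Q against 25Q controls (6 and 0 with library totals alone), led by Srsf6, with 112.9 ± 13.9 CPM in 72Q controls and 77.5 ± 11.2 CPM in 25Q controls (0.54 ± 0.05, edgeR adjusted p = 2.61e-10). Srsf12 rose in all 3 comparisons, by 0.31 ± 0.08 in 72Q, 0.60 ± 0.07 with shRNA 1 and 0.30 ± 0.07 with shRNA 2. The SR list counted 2 rises and 0 falls with shRNA 1, and 5 rises and 0 falls with shRNA 2. Of 20 hnRNP genes, 2 rose and 10 fell in 72Q against 25Q controls, or 6 and 6 with library totals alone. Hnrnpdl fell the furthest (-0.74 ± 0.05, edgeR adjusted p = 9.32e-13), and Hnrnpc rose (0.33 ± 0.05). For the hnRNP list the counts were 5 and 2 with shRNA 1 and 1 and 6 with shRNA 2, the second becoming 4 and 3 with library totals alone.

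Pan-neuronal markers, none of them among the 10, were tested in the same fit. In 72Q against 25Q controls 1 of 15 rose (Nefm, 0.14 ± 0.05) and 10 fell, with a median log2 fold change of -0.35, where 29.3% and 27.8% of all genes tested rose and fell. Tubb3, the neuronal tubulin, had 1192 ± 216 CPM in 72Q controls and 2198 ± 572 CPM in 25Q controls (-0.87 ± 0.07, edgeR adjusted p = 2.79e-10), and Dcx (-0.81 ± 0.09) and Syt1 (-0.81 ± 0.05) fell similarly. With Twist1 shRNA 1, 5 rose, led by Dcx (0.56 ± 0.09) and Eno2 (0.39 ± 0.04), and 2 fell, Gap43 and Syn1. With shRNA 2, 3 rose and 9 fell. Those that fell included Tubb3 (-0.34 ± 0.07), while Eno2 (0.34 ± 0.04) and Syt1 (0.33 ± 0.05) rose. Astrocyte markers counted 5 rises and 0 falls of 8 in 72Q against 25Q controls, 1 and 1 with shRNA 1, and 0 and 6 with shRNA 2. Oligodendrocyte-lineage markers counted 2 and 2, 0 and 5, and 0 and 6 of 8, and progenitor markers 5 and 0, 0 and 3, and 0 and 6 of 8, in the same order. Of the microglial markers 2 were tested, with 1 rise in all (shRNA 2), and of the vascular and meningeal markers 6, with 0 and 3, 2 and 0, and 3 and 1.

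**Figure D4:**
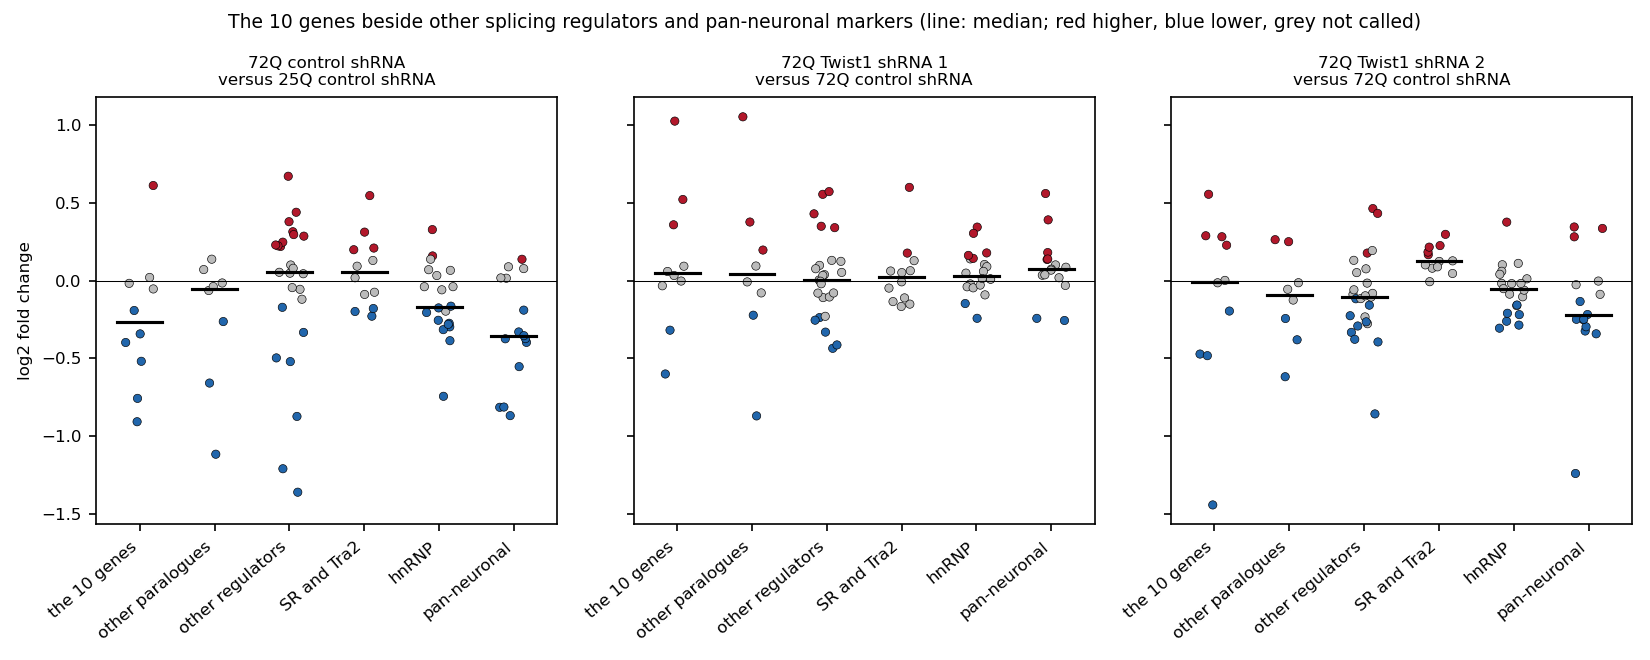
Log2 fold changes (vertical axis) of the 10 genes, 8 other paralogues, 25 other regulators, 12 SR and Tra2 genes, 20 hnRNP genes and 15 pan-neuronal markers in 3 comparisons, each point a gene and each line a median. In 72Q against 25Q controls the medians are -0.27 for the 10 genes and -0.35 for the pan-neuronal markers, against 0.05 for other regulators.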

How the data were processed

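RNA of 16 libraries, depleted of ribosomal RNA with Ribo-Zero, was sequenced. Reads were aligned with STAR 2.0.4b and counted with featureCounts 1.45 of Subread on GRCm38, per the submitters' processing notes; the strand setting, the annotation and how multi-mapping reads were handled are not given here, so reads shared by paralogues or antisense genes are uncertain. The authors deposited raw counts per Ensembl gene, with CPM (count scaled to the library total) and RPKM (that CPM per kilobase of listed length); recomputing both from the counts gave largest differences of 2.55e-11 and 4e-11. Symbols matched 40254 identifiers (97.26%). The promoter table came from RefSeq.

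From the counts, edgeR 4.0.16 (R 4.3.3) was run with filterByExpr (15103 genes kept), TMM factors, a robust quasi-likelihood fit of group plus experiment to the 16 libraries, a prior count of 2 and Benjamini-Hochberg adjustment over all genes (threshold 0.05); the method was tested on simulated counts. CPM in the text are TMM-scaled. Alternatives were other scalings, no filter, DESeq2 1.42.0, no block, title numbers as block, only the 2 groups compared, and each library left out. The experiment pairs libraries through the labels. Deviations from group means correlated at 0.30 to 0.70 in the 24 pairs of 1 experiment (median 0.51). Between experiments they correlated at -0.43 to 0.39 (median -0.19), so the ranges overlapped. Deviations within a group cancel, so a positive correlation within experiments pulls that between experiments negative. The second median is therefore no separate comparison. By the labels, title numbers put 25Q and 72Q libraries in the same experiment only for number 2 (exp109b). The 12 pairs of 25Q with 72Q libraries by title number, those of number 2 included, correlated at -0.32 to 0.36. Between replicates, chi-square over its degrees of freedom was 2.78 to 22.0, so none was counted as a duplicate. The lowest value was between exp109a and exp109b of the 25Q controls. These experiments also gave the lowest value within shRNA 1 (4.67) and within shRNA 2 (6.34). In 72Q controls they gave 9.25, and exp107 with exp109a was lowest (6.18). If exp109a and exp109b were 1 experiment, the blocks and the n of 4 overstate the replication, which was not tested. The labels do not say whether replicates were separate cultures, and p-values cover only the spread among these libraries, which may be technical. The 10 genes and all lists (further paralogues, other regulators, SR and Tra2 proteins, hnRNP proteins, pan-neuronal, astrocyte, oligodendrocyte, microglial, vascular and progenitor markers) were chosen with earlier results of these data known. Named genes are the 10, Twist1, the called genes with the largest folds of each splicing and neuronal list (up to 3 each way in 72Q against 25Q, up to 2 for a Twist1 shRNA), the highest marker of each cell type list, the most alike gene of each member, and overlapping genes; 1 gene that this rule names is not reported here.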

Additional observations from a re-analysis of the deposited data

Results flagged for a closer look

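In 40 groups of 4 libraries (10 genes in 4 groups), the gap between the highest or lowest library and its neighbour, over the group's range, was set against Dixon's 95% critical value for 4 values; chance flags about 1 in 20 groups, and 2 were flagged. Ptbp2 in 72Q controls had a ratio of 0.932, the exp109b library being low at 95.4 CPM, against 107.4 to 108.3 CPM in the other three. Celf4 in 25Q controls had a ratio of 0.933, the exp108 library being low at 404.6 CPM, against 508.0 to 515.4 CPM in the other three. Leaving out 1 library at a time kept the log2 fold change in 72Q against 25Q controls between -0.54 and -0.49 for Ptbp2 and between -0.43 and -0.36 for Celf4.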

How the results depend on the processing

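The number of the 10 genes called was within 1.5 times the main count in all 6 comparisons under the 8 other settings. With a library left out it was 6 to 7 (main 7) for 72Q against 25Q, 5 to 6 (main 5) for shRNA 1 and 8 (main 8) for shRNA 2 against 72Q controls, 8 to 10 (main 8) between shRNAs, and 7 to 8 (main 8) and 9 (main 9) for the shRNAs against 25Q. Of 480 fold changes under the other settings, 448 moved by less than the SD of the paired difference over the 4 experiments, 30 moved by more and 2 turned; calls were gained or lost in 23 of the 480. The 2 that turned came with library totals alone: shRNA 2 against 25Q gave 0.0060 for Rbfox1 and 0.033 for Rbfox2. Without the experiment as block, Nova2 in 72Q (-0.20), Nova2 with shRNA 1 (-0.32), Nova1 (0.23) and Rbfox2 (-0.19) with shRNA 2, and, against 25Q, Elavl2 with shRNA 1 (0.18) and Rbfox2 with shRNA 2 (-0.17) lost their calls; with title numbers as block, Nova2 in 72Q (-0.20) did. Against 25Q, Ptbp2 with shRNA 1 lost its call with upper-quartile factors (-0.08) and library totals (-0.03), Rbfox1 (-0.10) and Rbfox2 (-0.08) with shRNA 2 with upper-quartile factors, and Elavl2 with shRNA 1 without the exp108 (0.15) or exp109a (0.16) library of shRNA 1 or the exp109a library of 25Q (0.11). Between shRNAs, Nova2 and Celf4 gained calls without the filter (0.16 and 0.11), and Nova2 also in a fit of those groups alone (0.15). Library totals alone gave calls to Elavl3 (0.13) and Elavl4 (0.14) with shRNA 1, and to Elavl2 (0.15) with shRNA 2, against 25Q. The cause was not tested.

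List counts were small and moved more. Over the 8 settings, in 72Q against 25Q, rises and falls ran from 0 to 3 and 2 to 3 for paralogues (main 0 and 3), 6 to 15 and 6 to 7 for other regulators (main 10 and 7), 2 to 6 and 0 to 3 for SR genes (main 4 and 3), 1 to 6 and 6 to 10 for hnRNP genes (main 2 and 10), and 0 to 5 and 9 to 10 for pan-neuronal markers (main 1 and 10). With shRNA 1, they ran from 1 to 3 and 0 to 1 for SR genes (main 2 and 0), 3 to 6 and 1 to 2 for hnRNP genes (main 5 and 2), and 3 to 7 rises for pan-neuronal markers (main 5). With shRNA 2, they ran from 2 to 6 and 5 to 9 for other regulators (main 3 and 9), 2 to 8 rises for SR genes (main 5), 1 to 4 and 2 to 6 for hnRNP genes (main 1 and 6), and 3 to 9 falls for pan-neuronal markers (main 9, the 3 without the block).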
